A study of Mus musculus with 6 samples.

Results

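Oxidative phosphorylation is carried out in the inner mitochondrial membrane by complexes I to IV, which pass electrons from NADH and succinate to oxygen and most of which pump protons, and by complex V, the ATP synthase, which uses the proton gradient to make ATP. A small set of subunits is encoded in mitochondrial DNA, and all others are nuclear genes whose mRNAs leave the nucleus and are translated in the cytoplasm. Neurons depend heavily on this pathway, and fast-spiking parvalbumin (PV) interneurons are known for their rich supply of mitochondria.

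The nuclear genes were taken by symbol from the gene list of the count files: those that begin with Ndufa, Ndufb, Ndufc, Ndufs or Ndufv, with Uqcr, with Cox4 to Cox8 or with Atp5, and Sdha to Sdhd, without pseudogene symbols and without genes of mitochondrial DNA. The rule gave 93 of 32285 genes. They comprise 7 core subunits, 29 accessory subunits and 8 assembly factors of complex I, 4 subunits of complex II (succinate dehydrogenase), 8 of complex III, 20 genes of complex IV (cytochrome c oxidase) and 17 of complex V. Ndufa4, named for complex I, is counted with complex IV, of which it is a subunit.

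The data are single-nucleus RNA counts from the prelimbic area (PL) of the medial prefrontal cortex of male C57BL/6 mice, in 6 libraries that each pool 3 males born to different mothers. Run males were raised by dams that had a running wheel on postpartum days 2 to 21, Sed males by dams in standard cages, and after weaning males were group-housed (GH) or single-housed (SI). Cohort 1 holds RunGH and SedGH males that had been through tube tests of social rank, the Run males being top and the Sed males bottom of their own group. Cohort 2 holds RunGH, SedGH, RunSI and SedSI males without behavioural tests. The study's methods describe adult males, whereas the sample labels give P21. With 1 library per group and cohort, testing history, preparation and depth of the cohorts cannot be told apart, and in cohort 1 maternal group and rank cannot be told apart either.

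Nuclei retained numbered 4997 to 9936 per library, with a median of 5586 and 6250 UMIs (distinct RNA molecules counted) in RunGH and SedGH of cohort 1 and of 1637 to 4033 in cohort 2, where SedGH was the shallowest. In both the GH and the SI pair of cohort 2, Run was deeper than Sed. Droplets at the main peak of low counts, taken as holding no nucleus and called background here, had a median of 1114 and 1264 UMIs in cohort 1 and of 81 to 307 in cohort 2. UMIs of mitochondrial DNA were 0.195% and 0.0765% of the background in cohort 1 and 2.42% to 4.53% in cohort 2. Of markers set for each class, 8 of 9 for PV, 10 of 11 for astrocytes and 8 of 10 for pyramidal neurons were highest in the class of that name, but only 4 of 7 for SST interneurons. The same markers were used to name the classes, so these counts describe the naming and are no separate check of it. Pairs of libraries shared 5 to 22 nucleus barcodes.

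The promoters of these genes, which the rule did not use, were searched for the letters of known sites. NRF1, a transcription factor known to act on many respiratory chain genes, binds a palindrome-like site, searched here on both strands as the letters GCGC, then any base, then TGCGC. RefSeq promoter windows (250 bases before to 50 after the start, GRCm38.p6) were found for 75 of the 93 genes, as 80 windows, and 20 of these windows (25%) held the letters, against 4.60% of all 32851 windows. The letters of a YY1 site, AAGATGGCG, stood in 10.0% against 1.40%, those of a GABP site, CCGGAAGT, in 6.25% against 3.89%, and the TATA box letters, TATAAA, in 11.25% against 13.6%. The stretches below show the NRF1 letters in 1 or more genes each of complexes I, II, IV and V, in capitals, 5′ to 3′ on the strand of the gene.
Ndufa11, a complex I accessory subunit, chr17:56717677-56717736, plus strand: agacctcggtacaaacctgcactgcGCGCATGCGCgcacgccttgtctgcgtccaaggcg
Ndufaf4, a complex I assembly factor, chr4:24897945-24898004, plus strand: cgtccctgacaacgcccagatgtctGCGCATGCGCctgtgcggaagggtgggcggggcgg
Sdha, the flavoprotein of complex II, chr13:74350304-74350363, minus strand: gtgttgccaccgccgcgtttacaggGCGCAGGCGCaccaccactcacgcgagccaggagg
Sdhd, a membrane anchor of complex II, chr9:50603894-50603953, minus strand: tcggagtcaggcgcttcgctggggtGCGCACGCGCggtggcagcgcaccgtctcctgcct
Cox6a1, the broadly expressed COX6A form of complex IV, chr5:115349086-115349145, minus strand: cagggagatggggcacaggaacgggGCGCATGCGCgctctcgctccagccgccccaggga
Atp5g2, a gene for the c subunit of the ATP synthase ring, chr15:102671055-102671114, minus strand: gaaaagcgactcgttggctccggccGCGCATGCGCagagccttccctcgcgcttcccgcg
The first capital lies 60, 113, 98, 79, 162 and 42 bases before the start in this order. A match of letters describes the window and shows no binding.

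The 93 genes together made up a small share of nuclear RNA and a larger share of the background. In nuclei they held 0.119% and 0.109% of UMIs in RunGH and SedGH of cohort 1, and 0.339%, 0.257%, 0.332% and 0.267% in RunGH, SedGH, RunSI and SedSI of cohort 2. In the background they held 0.202% and 0.130% in cohort 1 and 2.34%, 2.42%, 2.45% and 2.79% in cohort 2. The background share was above the nuclear share in all 6 libraries, by 1.70 and 1.20 times in cohort 1 and by 6.89 to 10.4 times in cohort 2, and counting error alone gave 95% half-widths of at most 0.0135 percentage points. The median nucleus held 7 UMIs of these genes in each cohort 1 library and 12, 5, 14 and 10 in cohort 2, so that levels of single genes can be read only over sums of nuclei.

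**Figure D1:**
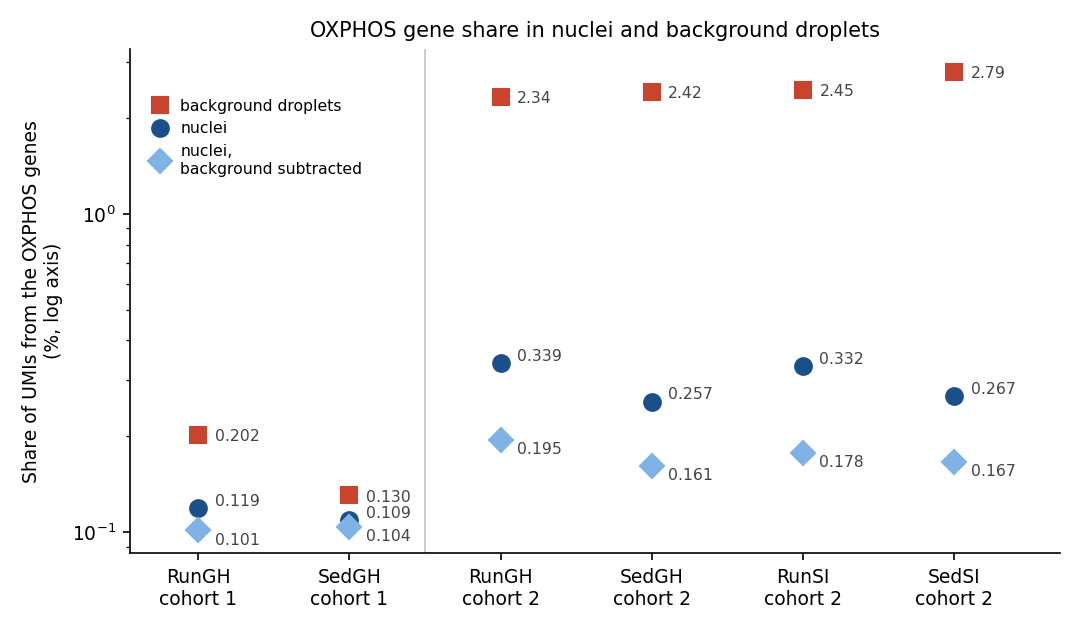
Share of UMIs from the 93 genes (percent, log axis) in each of the 6 libraries, for background droplets, for nuclei and for nuclei after 1 average background droplet was subtracted from each. Background points stand between 2.34% and 2.79% in the 4 libraries of cohort 2 and at 0.202% and 0.130% in cohort 1, and nuclear points stand below them in every library.

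An average background droplet held 2.28 and 1.67 UMIs of the 93 genes in cohort 1 and 1.97 to 7.60 in cohort 2. An average nucleus held 7.63 and 7.61 in cohort 1 and 4.95 to 15.2 in cohort 2. Measured this way, 1 background droplet carried 29.9% and 22.0% as many of these UMIs as a nucleus in cohort 1, and 39.9% to 50.03% in cohort 2, whereas for all UMIs it carried 17.6% and 18.4% in cohort 1 and 3.85% to 6.76% in cohort 2. In cohort 2 both measures were higher in the Run than in the Sed libraries. Nuclear values are therefore given also after subtraction of 1 average background droplet of the same library from each nucleus, a setting chosen after the data were seen. Then the nuclear share was 0.101% and 0.104% in cohort 1 and 0.161% to 0.195% in cohort 2, still higher in each cohort 2 library than in either cohort 1 library.

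Gene by gene, background was set against nuclei of the same libraries, with edgeR's quasi-likelihood test and Benjamini-Hochberg adjustment over all genes tested (threshold 0.05). Of the 93 genes 92 were tested, 86 were higher in background and 1 was lower, against 56.6% of all 19323 genes called, 29.0% higher and 27.6% lower. The median log2 change was 2.43, against -0.06 over all genes, and within single libraries the median was 0.96 and 0.33 in cohort 1 and 3.04 to 3.67 in cohort 2.

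Cox4i1, the main form of COX4, the subunit at which ATP inhibits complex IV, stood at 20.02 and 12.3 CPM (UMIs scaled to a common library total) in nuclei of cohort 1 and at 137, 93.1, 130 and 97.9 CPM in cohort 2. In background it stood at 56.4 and 23.5 CPM in cohort 1 and at 1293, 1326, 1297 and 1514 CPM in cohort 2. Background was the higher in each library, and the log2 change was 2.76 ± 0.45 (SE, adjusted p = 0.0029).

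Cox8b, the muscle form of COX8, was among the genes called higher with 1 nuclear and 25 background UMIs in all 6 libraries. It passed the filter on low counts through the background, and is given no fold. Among the genes with more UMIs the largest changes were those of Cox6a2, the COX6A form known from heart and skeletal muscle (3.54 ± 0.38, adjusted p = 0.0015), Atp5e, the epsilon subunit of ATP synthase (3.30 ± 0.40, adjusted p = 0.0017), Uqcr11, a small complex III subunit (3.22 ± 0.42, adjusted p = 0.0018), and Ndufa4 (3.08 ± 0.40, adjusted p = 0.0018). For Atp5e the nuclei gave 7.07 and 4.56 CPM in cohort 1 and 26.3, 20.3, 31.7 and 20.7 in cohort 2. Its background gave 28.9 and 15.5 CPM in cohort 1 and 356, 379, 421 and 480 in cohort 2, with no overlap between background and nuclei within either cohort. Cox8c, the testis form of COX8, was close to undetected, with 1 nuclear and 0 background UMIs.

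Complexes III, IV and V and the accessory subunits of complex I had the highest medians, and the assembly factors the lowest. The count higher in background was 8 of 8 for complex III (median log2 change 2.85), 18 of 19 tested for complex IV, Cox8b among them (2.60), 17 of 17 for complex V (2.45) and 28 of 29 for complex I accessory subunits (2.56). All 7 complex I core subunits were higher, with a median of 1.72, and 3 of 4 for complex II, with 1.11. Of the 8 complex I assembly factors, which help build the complex but are not part of it, 5 were higher and 1 was lower, with a median of 0.59.

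Ndufaf6, an assembly factor, was the 1 gene lower in background (-0.27 ± 0.10, adjusted p = 0.049). It stood at 23.3, 23.0, 27.4, 27.1, 27.1 and 25.6 CPM in nuclei of RunGH and SedGH of cohort 1 and RunGH, SedGH, RunSI and SedSI of cohort 2, and at 19.4, 19.1, 23.1, 24.5, 23.2 and 24.4 CPM in their background. The gap was small in each library and of 1 direction. Those not called were Ndufs4, an accessory subunit of the matrix arm, Ndufaf2 and Ndufaf7, assembly factors, Sdhb, the iron-sulfur subunit of complex II, and Cox7b2, a COX7B paralog, with log2 changes of 0.31, 0.40, 0.07, 1.03 and -0.56.

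Other lists of genes were set beside these in the same comparison. The 13 genes of mitochondrial DNA were all higher in background (median log2 change 3.51), as were 83 of 84 cytoplasmic ribosomal protein genes (2.90) and 17 of 17 abundant cytoplasmic mRNAs (2.93), while of 9 noncoding RNAs retained in the nucleus none was higher and 6 were lower (-0.88). Enzymes of the tricarboxylic acid cycle gave 10 of 18 higher and 1 lower (0.51), glycolytic enzymes 10 of 15 higher (1.90), and electron carriers with their partners 9 of 16 higher and 1 lower (0.58). Factors outside the rule that assemble complexes III to V gave 16 of 29 higher and 6 lower (0.79), those that assemble complexes I and II 5 of 13 higher (0.20), and factors of mitochondrial biogenesis 2 of 13 higher and 4 lower (-0.13).

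Gene length ran against the change. The 93 genes span 953 bp (Cox6a2) to 155909 bp (Ndufaf2) in GENCODE vM21, with a median of 7284 bp, and counts include introns. Spearman's rho between length and log2 change was -0.70 over the 89 genes tested in cohort 1 alone and -0.60 over the 91 in cohort 2 alone, with Cox8b in neither. These points share libraries and depth, and rho is given as a description. In cohort 2 the median change was 3.56 (11.8-fold) for 29 genes under 5 kb, 3.33 for 32 genes of 5 to 10 kb, 2.96 for 16 genes of 10 to 20 kb and 1.02 (2.03-fold) for 14 genes of 20 kb or more. In cohort 1 the medians in the same order were 1.21, 0.72, 0.39 and 0.28.

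**Figure D2:**
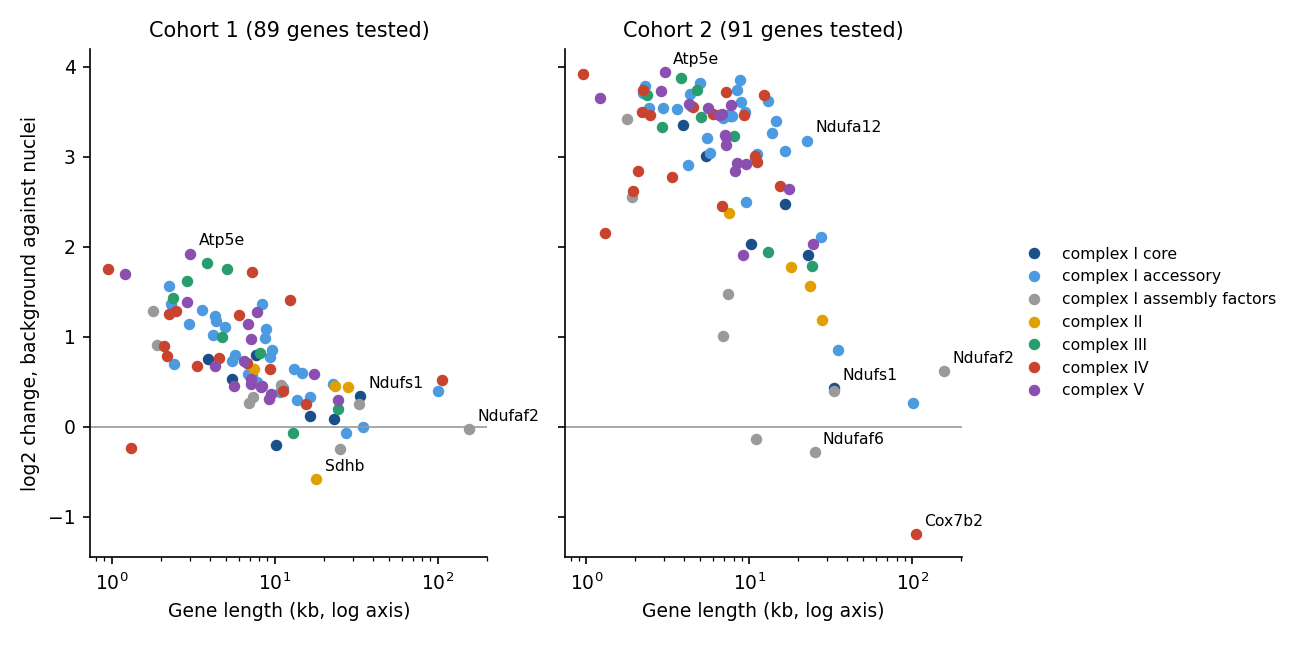
Log2 change of background against nuclei for each gene, against gene length (kb, log axis), in cohort 1 (89 genes) and cohort 2 (91 genes), with colours for the complexes. Short genes stand highest in both panels, with rho of -0.70 and -0.60, and the cohort 2 points stand above those of cohort 1 for nearly all genes.

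Genes at the long end show the other side. Ndufaf2, the longest of the 93, stood at 41.8 and 38.1 CPM in cohort 1 nuclei and at 41.8, 44.8, 41.7 and 38.9 in cohort 2 nuclei, with overlap between the cohorts. In background it stood at 38.9 and 38.2 CPM in cohort 1 and at 64.6, 72.9, 63.2 and 77.5 in cohort 2. Cox7b2 spans 105382 bp and went opposite ways in the cohorts: its background was at 8.57 and 6.85 CPM against 6.88 and 4.2 in nuclei of cohort 1, and at 2.17, 2.21, 1.85 and 2.60 CPM against 4.33, 4.46, 4.83 and 4.93 in cohort 2. The log2 change was 0.52 ± 0.19 (adjusted p = 0.023) in cohort 1 alone and -1.19 ± 0.16 (adjusted p = 1.5e-06) in cohort 2 alone.

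The cohorts were compared by the difference of their background changes, an interaction tested in 1 model. It was larger in cohort 2 for 85 of 92 genes and smaller for 2, Cox7b2 (-1.72 ± 0.23) and Ndufaf7 (-0.62 ± 0.16), with a median of 2.29, against 63.3% of all genes called, 31.8% larger and 31.6% smaller. It was greatest for Atp5mpl (3.06) and Atp5h (2.89), subunits of the membrane part and stalk of ATP synthase, and for the complex I accessory subunits Ndufa8 (2.95), Ndufa7 (2.95) and Ndufc2 (2.94). Alone, cohort 1 had 66 genes higher and 1 lower (median 0.67; 35.4% of all genes called, 17.5% higher), and cohort 2 had 88 higher and 2 lower (median 3.22; 41.2% of all genes higher). Sdhb was the 1 gene lower in background in cohort 1 (-0.58 ± 0.14, adjusted p = 3.0e-04), and it was higher in cohort 2 (1.77 ± 0.10, adjusted p = 8.3e-12).

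Levels in the nuclei themselves also differed between cohorts. Of 90 genes tested, 75 were higher in cohort 2 and 1 was lower, with a median log2 change of 1.56, against 39.3% of all 18761 genes called, 20.8% higher and 18.4% lower. The count higher was 17 of 17 for complex V, 27 of 29 for complex I accessory subunits, 7 of 8 for complex III and 13 of 17 for complex IV. It was 4 of 7 for the complex I core, 5 of 8 for assembly factors and 2 of 4 for complex II.

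Ndufb11, an accessory subunit of the membrane arm of complex I, changed most (3.55 ± 0.18), from 1.20 and 1.11 CPM in cohort 1 to 17.6, 12.8, 17.8 and 11.98 in cohort 2. Cox5b, a complex IV subunit on the matrix side, went from 3.77 and 3.01 CPM to 43.6, 26.3, 43.4 and 30.2 (3.19). The groups stood far apart for both genes, as they did for Uqcr11 (2.82), Cox8a, the common COX8 form (2.74), and Cox4i1 (2.69). Ndufaf5, an assembly factor, was the 1 gene lower in cohort 2 (-0.65 ± 0.12, adjusted p = 0.0084). In background 86 genes were higher in cohort 2 and 2 lower, with a median of 3.78 (35.6% of all genes higher, 35.7% lower). After subtraction of the background from nuclei 42 of 88 were higher and 1 lower, with a median of 0.67 (16.8% of all genes higher). No other amount was subtracted, and the part of background in the difference was not tested beyond this.

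Classes of cells were set side by side within libraries. They were rebuilt by clustering in which the 93 genes took no part, and sums under 20 nuclei were left out. Ribosomal protein genes stayed in the clustering. Clusters with more than 1 gene of mitochondrial DNA or ribosomal proteins among their leading genes were not named pyramidal, a limit set for no other class. The part of this limit in the shares below was not tested. Nuclei given no class name, 237 to 639 per library, were not compared. In each library every other named class had a larger share of UMIs from the 93 genes than pyramidal neurons, the excitatory projection neurons. The pyramidal share ran from 0.105% to 0.112% in cohort 1 and from 0.245% to 0.319% in cohort 2. Layers differed among pyramidal neurons: nuclei named layer 5 NP had 1.15 to 1.29 times the pyramidal share in the 6 libraries. They also had a lower median of UMIs than pyramidal nuclei together in each library. Nuclei named layer 5 ET had 1.10 times the pyramidal share in both libraries of cohort 1 but 0.896 to 0.954 times in cohort 2. Astrocytes had 0.148% to 0.182% in cohort 1 and 0.495% to 0.610% in cohort 2. PV interneurons had 0.158% to 0.181% in cohort 1 and 0.387% to 0.509% in cohort 2. In all 6 libraries the PV share was above those of SST, VIP and NPY/Lamp5 interneurons, whose ranges overlapped one another at 0.126% to 0.138% in cohort 1 and 0.318% to 0.442% in cohort 2. With background subtracted the shares of cohort 2 were lower, at 0.152% to 0.182% in pyramidal neurons, 0.272% to 0.336% in PV interneurons and 0.287% to 0.334% in astrocytes, and those of cohort 1 were 0.094% to 0.0991%, 0.165% to 0.175% and 0.154% to 0.173%. As counted, astrocytes stood above PV interneurons in each library but SedGH of cohort 1, whereas after the subtraction PV interneurons stood above astrocytes in both libraries of cohort 1 and in RunGH of cohort 2.

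**Figure D3:**
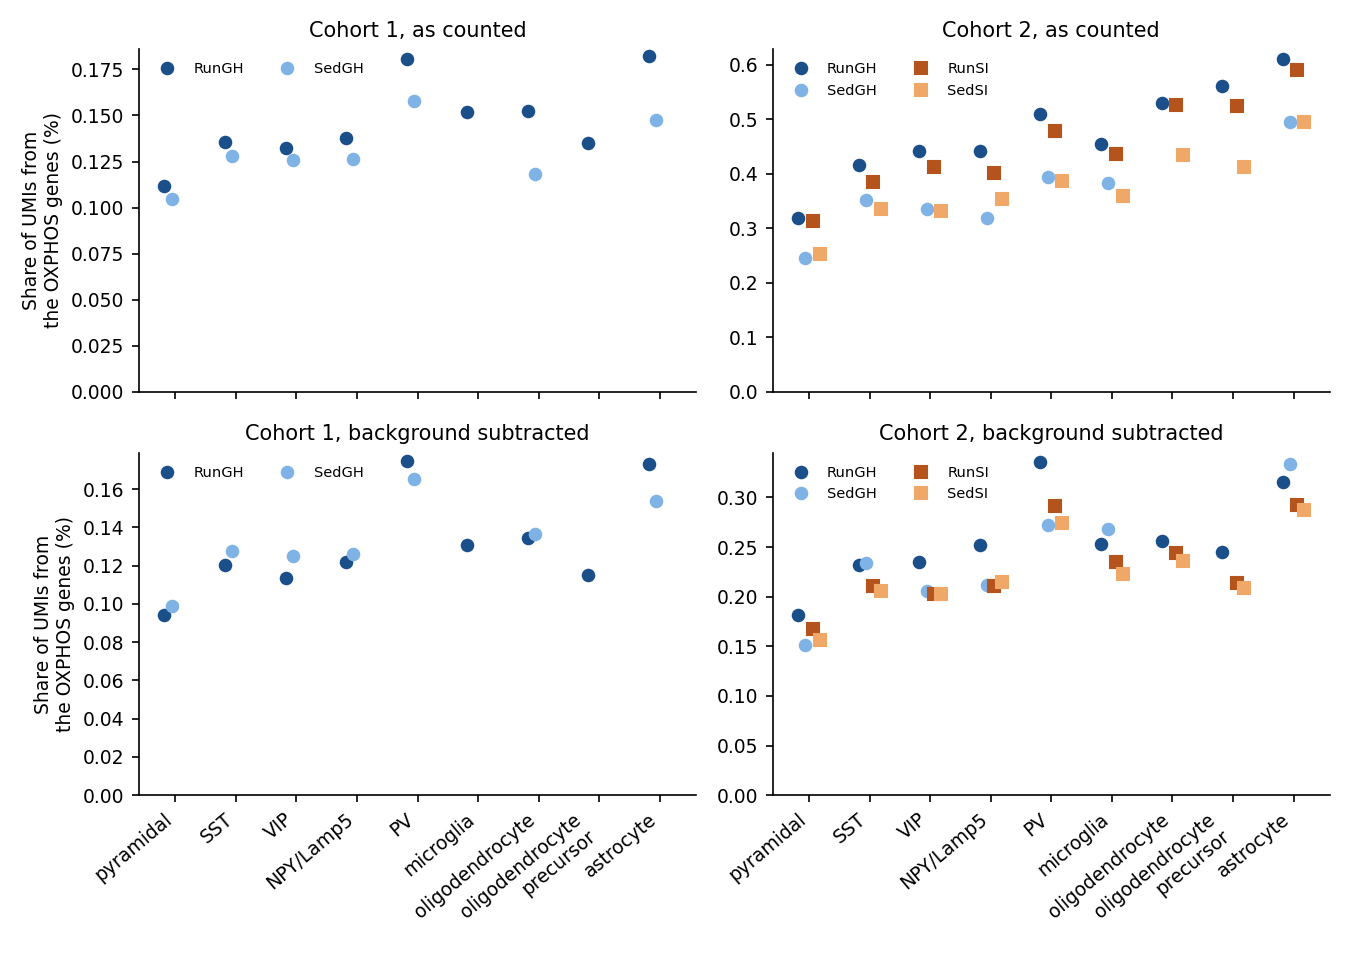
Share of UMIs from the 93 genes (percent) by class, with 1 point per library, for cohort 1 and cohort 2 as counted and after background subtraction. Pyramidal neurons stand lowest and PV interneurons stand above the other interneurons in each library, with PV at 0.158% to 0.181% in cohort 1 and 0.387% to 0.509% in cohort 2 as counted.

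Over the mean of the other 3 interneuron classes the PV share was 1.34 and 1.25 times higher in RunGH and SedGH of cohort 1 and 1.18, 1.18, 1.20 and 1.14 times higher in RunGH, SedGH, RunSI and SedSI of cohort 2. With background subtracted these ratios were 1.47, 1.31, 1.40, 1.25, 1.40 and 1.32, each larger than as counted. Per gene, PV sums were tested against the other inhibitory classes in a model of all class sums, with library and class as terms. Each class sum counted there as an observation, so p-values of class comparisons rest on more observations than there are libraries. Of 81 genes tested, 25 were higher in PV interneurons and none was lower, with a median log2 change of 0.26, against 27.3% of all 10400 genes called and 15.4% called higher.

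Cox7b, a small nuclear subunit of complex IV, had the largest change in PV interneurons (0.83 ± 0.11, adjusted p = 1.7e-09). It stood at 22.9 and 27.7 CPM in PV sums of cohort 1 and at 197, 122, 165 and 135 in cohort 2. In SST sums it stood at 16.5 and 16.7 CPM and at 79.7, 55.4, 86.0 and 53.7, so that PV was the higher in each library. VIP sums gave 18.1 and 18.8 CPM and 123, 55.9, 122 and 73.5, also below PV in each library.

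Ndufa1, a small accessory subunit of complex I, followed at 0.81, on few UMIs. It held 3, 2, 10, 2, 15 and 0 UMIs in SST sums and 0, 0, 4, 4, 5 and 2 in VIP sums (RunGH and SedGH of cohort 1, then RunGH, SedGH, RunSI and SedSI of cohort 2). Atp5l, subunit g of ATP synthase, was higher by 0.66 ± 0.11, from 38.2, 22.9, 88.5, 67.3, 59.9 and 66.4 CPM in SST sums to 55.1, 47.2, 121, 109, 100 and 88.0 in PV sums. Cox5a, a matrix-side subunit of complex IV, was higher by 0.65 ± 0.10, and so was the assembly factor Ndufaf4 by 0.65 ± 0.14. PV was the higher class in all 6 libraries for both Cox7b and Atp5l against SST.

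The genes called in PV interneurons came from all groups of the list. In complex I they were the core subunits Ndufs1 (0.53), Ndufs7 (0.49) and Ndufv2 (0.39), which carry iron-sulfur clusters, with accessory subunits Ndufa10, Ndufs4 and Ndufs5 and assembly factors Ndufaf2 (0.60) and Ndufaf5 (0.55). In complex II they were Sdha (0.26) and Sdhb (0.48). In complex III they were the core proteins Uqcrc1 (0.52) and Uqcrc2 (0.40) and the hinge protein Uqcrh (0.35), and in complex IV also Cox6a1 (0.57) and Cox7a2 (0.37). In complex V they were the alpha, beta and gamma subunits of the catalytic head, Atp5a1 (0.57), Atp5b (0.31) and Atp5c1 (0.51), with Atp5f1 (0.34) and Atp5md (0.38). Cox4i1 (0.04, adjusted p = 0.87) and Atp5e (-0.02, adjusted p = 0.98), high in background, did not pass.

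Beside these genes, PV interneurons had 10 of 17 tricarboxylic acid cycle genes higher, among them Idh3a, the alpha subunit of NAD-dependent isocitrate dehydrogenase (0.97 ± 0.22), and Cs, citrate synthase (0.50 ± 0.10). Electron carriers gave 6 of 12, glycolytic enzymes 7 of 15 and biogenesis factors 5 of 11, the last with Ppargc1a (2.16 ± 0.11) and Esrrg (2.20 ± 0.10), a coactivator and a nuclear receptor known to act on respiratory chain genes. These lists were not kept out of the clustering, so their values describe the classes. None of the 80 ribosomal protein genes and none of the 13 genes of mitochondrial DNA was called. With background subtracted 30 of 73 were higher and none lower, with a median of 0.52 (15.3% of all genes higher). In cohort 1 alone 11 of 70 were higher (median 0.46; 9.04% of all genes called higher), and in cohort 2 alone 16 of 80 (median 0.22; 15.2%). DESeq2 gave 17, against 13% of all genes called higher. Leaving out 1 library at a time gave 16 to 23, against 12.2% to 14% of all genes, the lowest count without RunGH of cohort 1 (13.3%).

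Against pyramidal neurons, inhibitory neurons together had 44 of 81 genes higher and none lower, with a median of 0.27, against 51.7% of all genes called and 22.1% called higher. Complex V gave 14 of 17, complex IV 10 of 12, complex III 5 of 8, complex II 2 of 3, complex I accessory subunits 10 of 29 and core subunits 1 of 6. Cox7b led again (0.58 ± 0.08, adjusted p = 7.7e-09), followed by Uqcrfs1, the Rieske iron-sulfur protein of complex III (0.55 ± 0.17), by the accessory subunits Ndufa12 (0.49) and Ndufa8 (0.48), and by Cox5a (0.46). The pyramidal sums of Cox7b were 12.1 and 11.0 CPM in cohort 1 and 71.7, 43.8, 62.4 and 49.2 in cohort 2, below the PV, SST and VIP sums of each library. The NPY/Lamp5 sums were 21.6, 19.5, 108, 9.7, 97.3 and 86.3 CPM in the same order. They stood above pyramidal neurons except in SedGH of cohort 2, where 9.7 CPM was 1 UMI. With library totals in place of TMM factors, which moved the median of all genes from -0.03 to 0.15, 70 were higher, against 38.1% of all genes. With background subtracted 18 of 73 were higher and 1 lower, Cox7a2l, a supercomplex assembly factor (-0.53), against 17.9% of all genes higher and 30.8% lower. Cohort 1 alone gave 6 higher and 1 lower of 70, against 13.3% of all genes higher and 20.2% lower, and cohort 2 alone 52 of 80 higher, against 24.3%.

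Astrocytes had 61 of 81 genes higher than pyramidal neurons and 2 lower, with a median of 0.62, against 66.2% of all genes called and 28.8% called higher. Complex V gave 16 of 17, complex I accessory subunits 24 of 29, complex IV 10 of 12, complex III 6 of 8 and core subunits of complex I only 2 of 6. The largest changes were in Uqcrfs1 (1.26 ± 0.24), Ndufb11 (1.18), Atp5e (1.11 ± 0.17), the accessory subunit Ndufa6 (1.10) and Uqcrh (1.10 ± 0.13). The 2 lower were Ndufaf7 (-0.55) and Ndufa10, an accessory subunit (-0.32).

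Uqcrh stood at 33.03, 20.5, 121, 112, 116 and 73.6 CPM in astrocytes and at 12.1, 9.76, 43.5, 30.02, 45.9 and 31.9 CPM in pyramidal neurons of the same libraries. Atp5e stood at 17.8, 10.8, 65.8, 30.7, 73.1 and 56.3 CPM in astrocytes and at 5.99, 3.85, 24.9, 19.8, 29.8 and 18.7 in pyramidal neurons. Astrocytes were the higher in each library for both. Genes of cytoplasmic RNA moved with them: 13 of 13 genes of mitochondrial DNA and 67 of 80 ribosomal protein genes were higher in astrocytes. Of the nuclear-retained noncoding RNAs 7 of 9 were lower (median -2.37). Whether these differences go with the compartment or with the class of cell was not tested. One background droplet carried 35.1% and 24.2% as many UMIs of the 93 genes as an astrocyte nucleus in cohort 1 and 38.7% to 57.7% in cohort 2, and 22.5% and 17.4% as many as a PV nucleus in cohort 1 and 32.4% to 44.4% in cohort 2, the share of the astrocyte being the larger in each library. With background subtracted 36 of 73 were higher and 2 lower, with a median of 0.66 (31.7% of all genes higher and 31.7% lower), led by Atp5e (2.50), Uqcr11 (1.90), Cox5b (1.87) and Ndufa4 (1.76). Atp5e was high in background, and the subtraction took most of its UMIs from the pyramidal sums of cohort 2. Its value of 2.50 is therefore a ratio of small remainders. Cohort 1 alone gave 26 of 70 higher (median 0.48; 25.4% of all genes higher), and cohort 2 alone 69 of 80 higher and 1 lower (median 0.86; 31.9% of all genes higher).

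**Figure D4:**
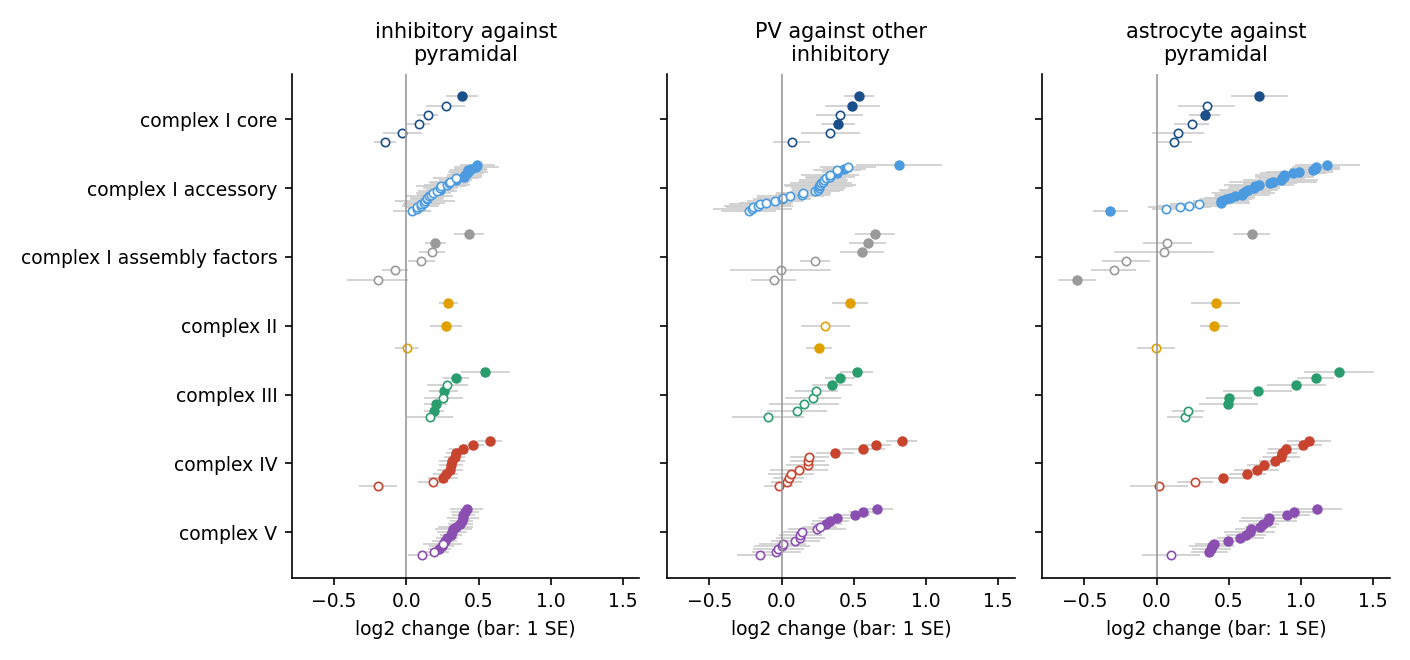
Log2 change of each of the genes tested, grouped by complex, for inhibitory against pyramidal neurons, PV against other inhibitory neurons and astrocytes against pyramidal neurons (bar, 1 SE; filled points, adjusted p under 0.05). Called genes lie above 0 in the first and second panels (44 and 25 genes), and astrocytes have 61 above and 2 below.

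The smaller glial classes and the vascular cells gave few calls against pyramidal neurons. Oligodendrocytes had 4 higher and 4 lower (40.1% of all genes called), with Ndufa1 (1.72) and the accessory subunit Ndufa11 (1.30) highest and Ndufaf6 (-2.80) and Ndufa10 (-0.95) lowest. These rest on few UMIs. Ndufa1 held 1, 0, 2, 4 and 3 (RunGH and SedGH of cohort 1, then RunGH, RunSI and SedSI of cohort 2). In the same order Ndufa11 held 4, 1, 0, 5 and 7, Ndufaf6 0, 0, 0, 1 and 1, and Ndufa10 1, 2, 6, 2 and 4. Oligodendrocyte precursors had 11 higher and 1 lower (39.8% of all genes called), led by Ndufs6, an accessory subunit of the matrix arm (1.08), and Atp5g3, a c subunit gene (1.07). Ndufs6 held 2, 5, 9 and 1 UMIs in precursors of RunGH of cohort 1 and RunGH, RunSI and SedSI of cohort 2. Microglia had 2 higher (39.3% of all genes called), Ndufa6 (0.75) and Atp5l (0.47), and vascular cells, summed in cohort 1 only, had 1 higher and 4 lower (32.1% of all genes called). These counts moved with the scaling: with library totals they were 28 higher and 1 lower in oligodendrocytes, 43 and none in precursors, 27 and none in microglia, and 6 and 1 in vascular cells, while 21%, 26.1%, 31.2% and 20.2% of all genes were called higher. Totals moved the median of all genes from -0.39 to 0.13 in oligodendrocytes, from -0.16 to 0.23 in precursors, from -0.14 to 0.35 in microglia and from -0.39 to 0.28 in vascular cells.

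Tissue forms of complex IV subunits were rare, and are given as UMIs pooled over the class sums of each cohort with exact Poisson 95% intervals for counting error. Cox6a2 had 16 UMIs in PV interneurons of cohort 2, or 4.37 CPM (2.50 to 7.09), against 59 in pyramidal neurons, or 0.646 CPM (0.492 to 0.833). These intervals do not overlap, and the background of cohort 2 stood at 12.6 CPM, above both. A background droplet there held 4.4986% to 8.6735% as many UMIs as a PV nucleus. Against a pyramidal nucleus it held 3.663% to 6.3999% as many. The part of background in these levels of Cox6a2 was not tested. In cohort 1 Cox6a2 had 2 UMIs in PV interneurons, or 0.772 CPM (0.0935 to 2.79), against 6 in pyramidal neurons, or 0.081 CPM (0.0297 to 0.176), with overlapping intervals. Cox6b2, a form known from testis, had 13 UMIs in astrocytes of cohort 1, or 5.33 CPM (2.84 to 9.11), against 2 in pyramidal neurons, or 0.027 CPM (0.00327 to 0.0976), and 0.22 CPM in background. In cohort 2 it had 6 UMIs in astrocytes, or 4.21 CPM (1.55 to 9.17), against 18 in pyramidal neurons, or 0.197 CPM (0.117 to 0.311). Background stood at 1.94 CPM, within the astrocyte interval, and a background droplet held 7.93% to 14.6% as many UMIs as an astrocyte nucleus. The part of background was not tested here either. Oligodendrocytes held 2 and 4 UMIs of it in cohorts 1 and 2, or 9.63 CPM (1.17 to 34.8) and 21.01 CPM (5.72 to 53.8), and precursors 1 and 5, or 3.99 CPM (0.101 to 22.2) and 11.2 CPM (3.62 to 26.04).

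Vascular cells, in the 2 sums of cohort 1, held 6 UMIs of Cox4i2, the COX4 form known from lung and vessels, or 24.7 CPM (9.08 to 53.8), against 4 in pyramidal neurons of cohort 1, or 0.054 CPM (0.0147 to 0.138), and 0.165 CPM in background. Ndufa4l2, a paralog of Ndufa4 induced by low oxygen in other tissues, had 2 UMIs there, or 8.24 CPM (0.998 to 29.8), against 8, or 0.108 CPM (0.0466 to 0.213), and 0.208 CPM in background. Both rest on a handful of molecules. Cox7b2 stood at 16.4 CPM in astrocytes of cohort 1 (40 UMIs) and at 7.02 CPM in cohort 2 (10 UMIs). In pyramidal neurons it stood at 5.25 and 4.31 CPM, in PV interneurons at 9.26 and 8.19 CPM and in NPY/Lamp5 interneurons at 10.4 and 15.5 CPM, each in cohort 1 and then cohort 2, and in background at 7.61 and 2.13 CPM. It had no UMI in the oligodendrocyte sums, where 3 UMIs would have been 7.54 CPM, or in the vascular sums, where they would have been 12.4 CPM.

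Run and Sed were compared to ask whether the dams' running wheel was followed by other levels in their sons. The model held cohort, maternal group and housing and left 2 degrees of freedom for the spread, and none of the 90 genes passed in all nuclei by edgeR, nor did any other of the 18761 genes (0.0% called). Of the 90, 46 had an unadjusted p under 0.05, against 8.26% of all genes, and 86 had an estimate above 0, with a median log2 change of 0.28 against -0.004 over all genes. DESeq2 called 3, Ndufa4, Cox4i1 and Cox8a, all higher in Run (0.389% of all genes called). Each library is a pool of animals, and no group has a second pool in its cohort. The p-values therefore set the Run change against how far it differed from pair to pair. That difference holds spread between pools and real differences between pairs, which cannot be told apart. In cohort 2 alone, given below, only the GH and SI pairs are set against each other in this way.

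The shares by pair show the same direction. In nuclei the share in Run was 1.09 times that in Sed in GH of cohort 1, 1.32 times in GH of cohort 2 and 1.24 times in SI of cohort 2. In background it was 1.55, 0.968 and 0.880 times. With background subtracted, the nuclear ratios were 0.974, 1.21 and 1.07, so that 1 of 3 pairs then lay below 1.

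**Figure D5:**
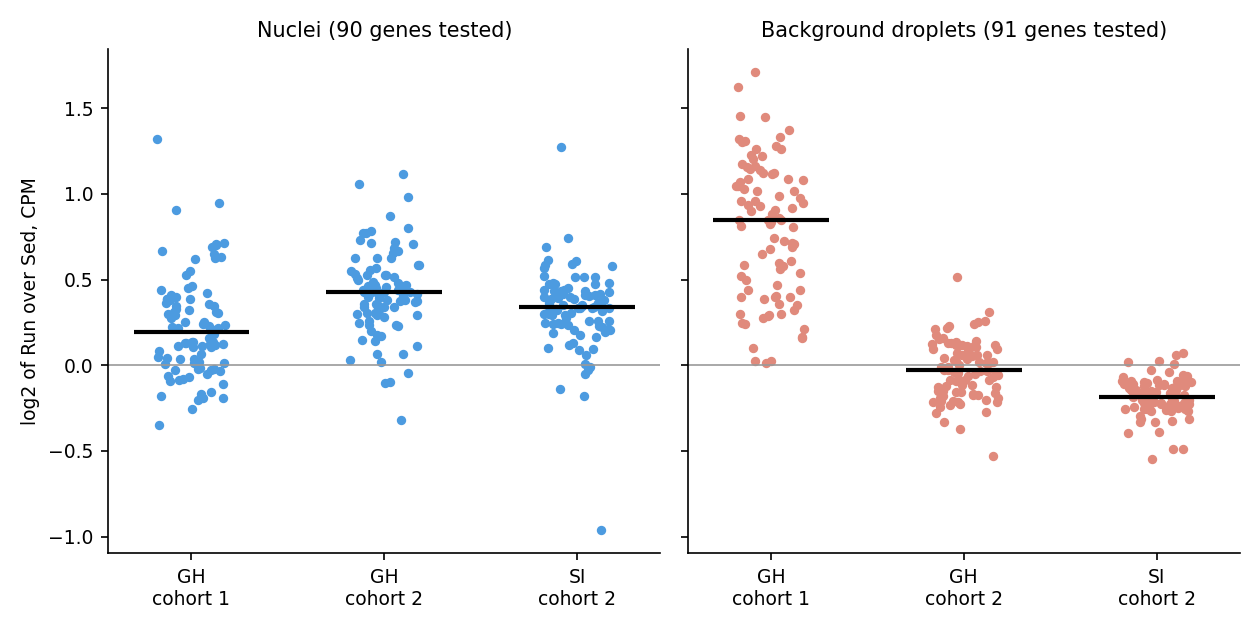
Log2 ratio of CPM, Run over Sed, for each gene in the 3 pairs (GH cohort 1, GH cohort 2, SI cohort 2), in nuclei (90 genes) and in background (91 genes), with a black line at the median. Nuclear medians are 0.20, 0.43 and 0.34, and background medians are 0.85, -0.03 and -0.18.

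The genes with the largest estimates in all nuclei did not pass the adjusted threshold in this model of 2 degrees of freedom. Ndufa4 stood at 10.5 CPM in RunGH and 5.43 in SedGH of cohort 1, at 54.5 and 34.6 in cohort 2 GH, and at 53.5 and 35.5 in cohort 2 SI. Run was the higher in each pair, and the log2 change was 0.66 ± 0.12 (adjusted p = 0.59). Uqcrfs1 gave 0.58 ± 0.18 and Cox4i1 0.49 ± 0.10, both with the same adjusted p of 0.59. The lowest estimates were those of Ndufaf1 (-0.05), Ndufaf6 (-0.02) and Ndufaf2 (-0.01), 3 assembly factors.

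Cohort 2 alone, a setting chosen after the data were seen that leaves 1 degree of freedom, gave 33 of 90 genes higher in Run and none lower, with a median of 0.31, against 5.1% of 17990 genes called higher and 8.53% called lower. They were 8 of 17 in complex V, 8 of 17 in complex IV, 9 of 29 accessory subunits, 3 of 8 in complex III, 2 of 7 core subunits, 2 of 4 in complex II and 1 of 8 assembly factors. The largest changes were Ndufb4, an accessory subunit of the membrane arm (0.58 ± 0.11, adjusted p = 0.0046), Ndufaf3, an assembly factor of complex I (0.58 ± 0.15, adjusted p = 0.026), Ndufa4 (0.52 ± 0.09, adjusted p = 0.0020) and Cox5b (0.52 ± 0.10, adjusted p = 0.0036), followed by Uqcr10, a small complex III subunit (0.48 ± 0.11, adjusted p = 0.014), and the core subunits Ndufs7 (0.46 ± 0.11) and Ndufs3 (0.45 ± 0.11). DESeq2 called 4 in the same libraries, Ndufa4, Cox5b, Cox8a and Cox4i1 (3.57% of all genes called). With library totals 62 were higher, against 15.1% of all genes higher and 7.89% lower.

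Cytoplasmic RNA moved the same way in these libraries. In cohort 2 alone 10 of 13 genes of mitochondrial DNA were higher in Run and 1 lower (median 0.92), as were 48 of 84 ribosomal protein genes (0.39) and 13 of 17 abundant cytoplasmic mRNAs (0.50). With background subtracted, the 93 genes gave 4 higher (Ndufb4 0.60, Cox7b 0.53, Ndufs3 0.45 and Sdhc, a membrane anchor of complex II, 0.44) and 3 lower (Uqcr11 -0.73, Atp5k, subunit e of ATP synthase, -0.54, and Cox7c, a complex IV subunit, -0.44) of 86, with a median of 0.07 (3.55% of all genes higher, 6.99% lower). The mitochondrial DNA genes then gave none higher and 8 lower (-1.50), and the ribosomal protein genes 2 higher and 5 lower (-0.02). Median nuclei held 0.328% of UMIs from mitochondrial DNA in both RunGH and RunSI of cohort 2, and 0.109% and 0.165% in SedGH and SedSI. These lay under the limit of 1%, against 2.42% to 4.53% in background. The subtraction thus took a large part of these UMIs, and the 8 calls describe what remained. Of the 33 calls 4 were kept after the subtraction and 29 were lost, and the 3 lower genes were not among the 33. The 7 genes called after it, in both directions, were no larger a share than the 10.5% of all genes called. The part of background in these calls was not tested beyond the subtraction of 1 droplet per nucleus. Counted in UMIs of the 93 genes, that droplet was 46.4% and 50.03% of an average nucleus in RunGH and RunSI. It was 39.9% and 40.1% in SedGH and SedSI. In all UMIs it was 6.74% and 6.76% in these Run libraries and 4.24% and 3.85% in these Sed libraries. Library totals were 62273299 and 69344415 UMIs in RunGH and RunSI and 19134955 and 35993055 in SedGH and SedSI. Depth thus went with maternal group in both pairs, and the 2 cannot be told apart in these calls. In the background droplets themselves, cohort 2 alone gave none of 91 higher and 5 lower in Run, Atp5k (-0.43), Atp5md (-0.32), Cox7b (-0.30), and the accessory subunits Ndufa6 (-0.29) and Ndufa2 (-0.28), against 5.75% of all genes higher and 5.89% lower. The count lower is near the share of all genes.

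Within classes the estimates for Run were close to those in all nuclei. The median log2 change was 0.27 over 88 genes in pyramidal neurons, 0.23 over 86 in inhibitory neurons, 0.28 over 84 in PV interneurons and 0.27 over 83 in astrocytes, and no gene of the 93 passed in any of these classes, where 0.0%, 0.0775%, 0.0963% and 0.0807% of all genes were called. At an unadjusted p under 0.05 there were 36, 17, 11 and 11 of these genes, against 7.29%, 6.03%, 6.28% and 5.63% of all genes, and DESeq2 called 1, in pyramidal neurons (0.234% of all genes called). Ndufb8, a membrane arm accessory subunit, came nearest in inhibitory neurons (1.24, adjusted p = 0.096). Cohort 2 alone gave 21 higher in pyramidal neurons (11.2% of all genes called), 7 in inhibitory neurons (3.8%), 1 in PV interneurons (Atp5g2, 1.51 ± 0.38, adjusted p = 0.0065; 1.67%) and none in astrocytes (0.532%). With background subtracted as well, pyramidal neurons had 4 higher and 1 lower of 86 (7.98% of all genes called), inhibitory neurons 2 and 2 of 84 (1.47%), and PV interneurons 1 and 1 of 71 (1.09%). The pyramidal count after subtraction is near the share of all genes, as is the 1 call in PV interneurons of cohort 2 alone as counted.

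Run was the higher in all 3 pairs for 61 of the 93 genes in nuclei (65.6%), against 22.6% of 15281 genes with at least 10 counts, and for 4 of 93 in background (4.3%), against 26.6% of 13649 genes. This is a count of directions and carries no test. It includes genes at a few CPM, where counting error alone can set the direction.

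Housing was compared in the same model, in which only cohort 2 holds both states. None of 90 genes passed between SI and GH in all nuclei (0.0% of all genes called), none had an unadjusted p under 0.05, DESeq2 called none, and the median log2 change was 0.03. Estimates ran from -0.21 for Ndufs7 to 0.24 for Uqcrfs1 and Atp5md, and 58 of 90 lay above 0. In background 86 of 91 estimates lay above 0 with a median of 0.16 and none passed (0.0% of all genes called). The shares of the 93 genes in SI nuclei, 0.332% and 0.267%, lay within those in GH nuclei of cohort 2, 0.339% and 0.257%.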

How the data were processed

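Nuclei of the PL from 6 pools of 3 males were run on the Chromium Single Cell 3′ V3 kit. The labels also name an RNeasy extraction. The authors counted UMIs per barcode and gene against mm10 with introns, with Cell Ranger 6.0.0 per the labels, whereas the matrix headers name version 4. The deposited values are raw counts of all barcodes, without cell calling or removal of free RNA. Library totals were 19134955 to 188952936 UMIs.

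As in the study, a barcode counted as a nucleus with 500 to 4000 genes and no more than 1% of UMIs from mitochondrial DNA. These limits alone left 82376 and 103391 barcodes in RunGH and SedGH of cohort 1, where background droplets pass them, so a UMI minimum per library was added (621 to 3156), set to the 99th percentile of the largest barcodes divided by 10, with the study's number of nuclei as the number of barcodes taken. Background was the main peak of log10 UMIs below the nuclei (±0.15). Nuclei were clustered with scanpy 1.11.5 on 3000 variable genes without the 93, 35 components and resolution 0.6. They were named from markers, with the limit for pyramidal clusters given above. Called doublets (1.09% to 6.75% of nuclei) were kept in the main values and removed in an alternative.

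Counts were summed per library and class and tested with edgeR 4.0.16 (quasi-likelihood, TMM, filterByExpr) in R 4.3.3, with Benjamini-Hochberg adjustment over all genes. SE is the log2 change divided by the square root of F. Libraries were the replicates, except between classes. There all class sums entered a model with library and class as terms, and class sums of the same library counted as separate observations. Run and Sed were paired by cohort, which the labels give. Deviations from the group means of the GH libraries of cohort 1 and 2 correlated at 0.736 over 15281 genes, and cohort was a term. On simulated counts of the Run and Sed comparison, 2-fold changes were recovered for 91% of changed genes at a dispersion of 0.01 (18464 genes tested) and for 26% at 0.05 (18506 genes). All libraries were drawn from a single mean profile, without cohort or housing effects, and changes under 2-fold were not simulated. Recovery in the real libraries and of smaller changes is therefore not known. Gene lengths came from GENCODE vM21 and promoters from RefSeq. Alternatives were DESeq2 1.42.0, library totals, no low-count filter, other limits for nuclei, doublets removed, other clustering and another background. Single libraries left out, each cohort alone and background subtracted were further alternatives. Background subtraction and the combinations with it were added after the data were seen. So was each cohort alone, with its combinations, for Run against Sed and between classes.

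The genes and lists were chosen with earlier results of these data known. Named were isoform families, complex I core, complex II and other main subunits where measured, and, in each comparison, the 5 called genes of each direction that changed most, or, where none passed, the 3 of each direction with 100 counts or more. For PV interneurons all called genes were named, and Cox7b2, Ndufaf2 and the genes of promoter stretches were picked after their values were seen.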

Additional observations from a re-analysis of the deposited data

Results flagged for a closer look

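The share of UMIs from the 93 genes in background moved in opposite directions between Run and Sed. The log2 ratio was 0.634 in GH of cohort 1, where Run was the higher, -0.0476 in GH of cohort 2 and -0.185 in SI of cohort 2, where Sed was the higher. The difference between cohorts was not tested, and each pair is 1 library against 1. The gap between background and nuclei differed between cohorts by an interaction test, with 85 of 92 genes larger in cohort 2.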

How the results depend on the processing

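Of the values recomputed, those below changed by more than the limits used. Run against Sed in all nuclei gave 0 calls, and 3 with DESeq2, 33 in cohort 2 alone, 7 there with background subtracted, 4 there with DESeq2 and 62 there with library totals. In pyramidal neurons it gave 1 with DESeq2, 21 in cohort 2 alone and 5 with background subtracted as well; in inhibitory neurons 2 without the low-count filter, 7 in cohort 2 alone and 4 with subtraction; in PV interneurons 1 and 2, and in background droplets 5 in cohort 2 alone. Cohort 2 against cohort 1 fell from 76 to 43 calls with subtraction. Inhibitory against pyramidal neurons, with 44 calls, gave 70 with library totals, 23 without the filter, 19 with subtraction and 7 in cohort 1 alone. PV against other inhibitory neurons, with 25, gave 11 in cohort 1 alone and 16 in cohort 2 alone, and astrocytes, with 63, gave 38 with subtraction and 26 in cohort 1 alone. Oligodendrocytes, with 8, gave 28 with DESeq2, 29 with totals, 2 with nuclei of at least 2000 UMIs and 1 in cohort 1 alone. Precursors, with 12, gave 33 with DESeq2, 43 with totals, 20 without doublets, 2 with at least 2000 UMIs, 3 with subtraction, 2 in cohort 1 alone and 27 in cohort 2 alone. Microglia, with 2, gave 27 with totals, 1 without the filter, 1 with log-normalized clustering, 5 with subtraction and 0 in cohort 1 alone. Vascular cells, with 5, gave 3 without doublets, 3 with at least 2000 UMIs, 1 with log-normalized clustering and 3 in cohort 1 alone. These counts sum both directions, and under the same settings 20.5% to 39.7% of all genes were called in oligodendrocytes, 16.8% to 40.1% in precursors, 12.7% to 40.8% in microglia and 28.4% to 32.6% in vascular cells.

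Medians that changed sign were those of oligodendrocytes (0.27, -0.0563 without the filter, -0.0006 in cohort 1 alone), precursors (0.40, -0.0865 with subtraction, -0.22 in cohort 1 alone), microglia (0.02, -0.0606 without the filter, -0.0489 with subtraction, -0.39 in cohort 1 alone) and vascular cells (-0.28, 0.17 with DESeq2, 0.40 with totals, 0.0329 with log-normalized clustering). The cause was not tested. For precursors and microglia, cohort 1 alone holds 1 sum of the class, RunGH, since SedGH had 17 and 9 nuclei, so that values of cohort 1 alone for them rest on 1 library that is assumed to vary like the other sums.

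Leaving out 1 library at a time gave 0 to 39 calls for Run against Sed in all nuclei, 0 to 25 in pyramidal neurons, 0 to 7 in inhibitory neurons, 0 to 1 in PV interneurons and 0 to 6 in background droplets. The high counts came without RunGH or SedGH of cohort 1 (37 and 39 in all nuclei, against 14.1% and 16% of all genes called), which leaves cohort 1 without a pair. It gave 16 to 23 for PV against other inhibitory neurons (16 without RunGH of cohort 1), 4 to 9 for oligodendrocytes (4 without RunSI or SedSI), 4 to 23 for precursors (4 without RunSI, 20 to 23 without either cohort 1 library or SedSI), 1 to 2 for microglia (1 without RunGH or SedGH of cohort 2) and 1 to 4 for vascular cells (1 without either cohort 1 library, which leaves 1 vascular sum that is assumed to vary like the other sums). Without the cohort pairing as a block, Run against Sed gave 0 calls in all nuclei (median 0.30), pyramidal, inhibitory, PV (0.39) and astrocyte nuclei (0.59) and background droplets (-0.10), and background against nuclei without the library block gave 83 (3.04).

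Run against Sed rests on 1 library per group and cohort, with 1 or 2 residual degrees of freedom. Median nuclei of 5 to 14 UMIs of these genes limit small classes.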
